A study of Mus musculus with 8 samples.

Results

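The genes described here are the non-coding RNA genes, pseudogenes and unannotated loci in a list of genes that differed between 2 groups of mouse colon tumours. They are the rows of the authors' deposited table whose annotated class (biotype) is neither protein-coding nor an immunoglobulin or T cell receptor segment, and they number 315 of 1428 listed genes (22.1%). The tumours came from C57BL/6N mice given the carcinogen azoxymethane together with dextran sodium sulfate, an agent that damages the gut lining. The 4 libraries labelled Wildtype (WT) were compared with 4 labelled miR-29ab1Vilin-KO (KO), in which the miR-29ab1 gene was disrupted in the intestinal epithelium. Other cells of the tumours are not stated to lack it, and the ages of the mice, the construct used and whether each library came from its own mouse are not stated. The p-values thus reflect differences among libraries that may be technical. The authors' deposited table keeps only genes whose unadjusted p is below 0.05, so a gene that is not listed has no level here, and fold changes of listed genes are on average larger than in an unselected set. Values are normalized counts, which are read counts divided by a size factor for each library.

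A long non-coding RNA is a transcript that is not translated into a known protein. Several such transcripts act as hosts: their introns carry small nucleolar RNAs (snoRNAs), which guide chemical modification of ribosomal RNA, or microRNAs (miRNAs), short RNAs that repress messages matching their seed, bases 2 to 8. A pseudogene is a copy of a gene that has lost its coding function. A processed pseudogene arose by reverse transcription of a message, an unprocessed one by duplication of the gene, and reads of either can be shared with the parent gene.

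The sequences that bear on the results are those of the miRNA that was disrupted, of the miRNAs whose host transcript was lower in KO, and of 3 snoRNAs. Mature miRNA sequences are from RefSeq on GRCm38.p6, with the seed in capitals. The disrupted gene makes miR-29a-3p (chr6:31062673-31062694, minus strand) and miR-29b-3p (chr6:31063025-31063047, minus strand), which share a seed. The miRNAs of Mir17hg lie between chr14:115043684-115043706 and chr14:115044476-115044496 on the plus strand, and they fall into 4 seed groups: miR-17-5p with miR-20a-5p, miR-18a-5p alone, miR-19a-3p with miR-19b-3p, and miR-92a-3p alone. The mature product of the listed miRNA gene with the highest mean, Mir7-1, is shown last (chr13:58392841-58392863, minus strand).
miR-29a-3p: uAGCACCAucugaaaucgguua
miR-29b-3p: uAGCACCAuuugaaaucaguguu
miR-17-5p: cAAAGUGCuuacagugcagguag
miR-20a-5p: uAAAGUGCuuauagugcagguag
miR-18a-5p: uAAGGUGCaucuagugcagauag
miR-19a-3p: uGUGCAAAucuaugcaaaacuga
miR-19b-3p: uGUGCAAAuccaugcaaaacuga
miR-92a-3p: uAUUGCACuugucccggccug
miR-7a-5p: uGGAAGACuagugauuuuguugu

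Of the 7 listed snoRNA genes, 3 are printed from GENCODE M21 on GRCm38 to show the 2 structural kinds. Snord83b (chr15:80078498-80078591, minus strand) is a box C/D snoRNA, and the capitals mark TGATGA, the form of the C box in it, and the last CTGA, the D box. Snora57 (chr19:8888538-8888685, minus strand) and Snora41 (chr1:63179004-63179135, plus strand) carry the names of box H/ACA snoRNAs, and the capitals mark the last ACA.
Snord83b: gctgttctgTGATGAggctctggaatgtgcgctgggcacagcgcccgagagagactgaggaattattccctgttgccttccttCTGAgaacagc
Snora57: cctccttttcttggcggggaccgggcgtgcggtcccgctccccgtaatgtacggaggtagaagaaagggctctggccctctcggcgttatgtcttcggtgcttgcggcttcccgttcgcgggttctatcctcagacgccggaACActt
Snora41: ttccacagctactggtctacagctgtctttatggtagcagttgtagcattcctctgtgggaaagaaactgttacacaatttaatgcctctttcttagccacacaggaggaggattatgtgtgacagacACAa

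Of the 315 genes, 165 were listed as higher and 150 as lower in KO (52.4% higher). The same shares over all listed genes were 58.1% higher and 41.9% lower, and 59.5% of the 1097 protein-coding rows were higher, so the split of the non-coding rows was nearer to even. The 4 KO libraries lay wholly above the 4 WT libraries for 67 of the 315 (21.3%), where 23.9% of all listed genes did, and wholly below for 72 (22.9%), where 20.7% did. Together 44.1% of the non-coding rows had groups that did not overlap, against 44.7% of all listed genes. None had an adjusted p below 0.05 in the authors' deposited table, where 8 listed genes (0.56%) did, and 2 had one below 0.1, where 23 listed genes (1.61%) did. In an edgeR refit of the recovered reads, 123 of the 315 kept an unadjusted p below 0.05 as higher in KO (39.0%, against 45.4% of all listed genes) and 116 as lower (36.8%, against 32.5%), and none passed after adjustment. With TMM factors computed over the listed genes, which raise the scale of KO replicate 4, the edgeR counts were 91 higher and 140 lower. The genes described below are thus listed differences, none of which passed the adjusted test in the authors' deposited table.

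The biotypes differed in size and direction. The largest class was the 107 loci with no biotype, which have no counterpart in the annotation and of which 57 were higher. It was followed by 43 antisense RNAs (26 higher), 37 long intergenic RNAs (20 higher), 34 processed transcripts (16 higher), 34 processed pseudogenes (13 higher) and 21 loci of the class TEC (14 higher), which GENCODE uses for transcribed loci that await experimental evidence. Some smaller classes leaned further: 6 of 7 snoRNAs were lower and 5 of 5 unprocessed pseudogenes were higher. Of these unprocessed pseudogenes, 2 overlap on the same strand and are not separate observations. Other small classes were near even, with 2 higher and 2 lower snRNAs, 2 higher and 3 lower miRNAs, and 2 higher and 2 lower rows classed only as pseudogene. A gene symbol was given for 125 of the rows, 83 had an identifier alone, and the rest were the unannotated loci.

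**Figure D1:**
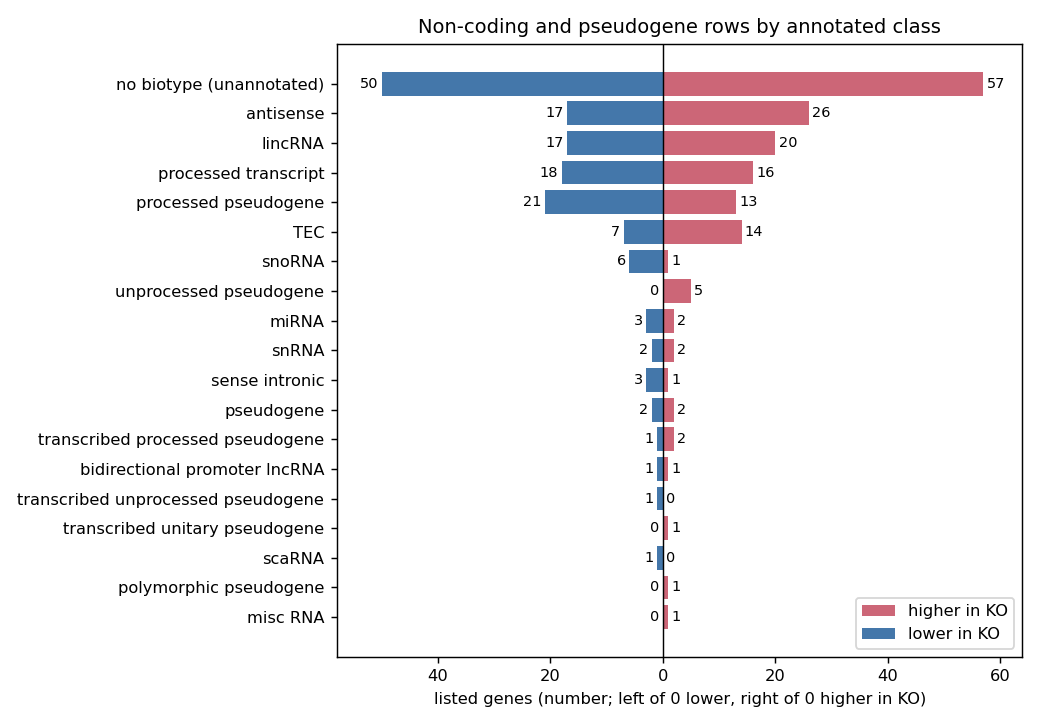
Number of listed non-coding and pseudogene rows (x axis) in each annotated class (y axis), with genes listed as higher in KO to the right of 0 and lower ones to the left. The snoRNA bar holds 6 lower and 1 higher, and the unprocessed pseudogene bar holds 5 higher and 0 lower.

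Most of these genes were weakly measured. Their median mean over the 8 libraries was 17.3 normalized counts, whereas that of the protein-coding rows was 361. Only 60 had a mean of 100 or more, 124 had one from 10 to 100, 81 one from 3 to 10 and 50 one under 3. All 4 WT libraries were at 0 for 17 genes and all 4 KO libraries for 7, with means of at most 3.51. In the best measured bin, 24 were higher and 36 lower (40% higher), where 61.0% of protein-coding rows of the same range were higher. In the bin under 3, 56% were higher. The median deposited log2 fold change of higher genes went from 0.81 at a mean of 100 or more to 4.05 at a mean under 3 in the authors' deposited table. At a mean of 100 or more, log2 fold changes ran from -1.77 to 2.14.

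**Figure D2:**
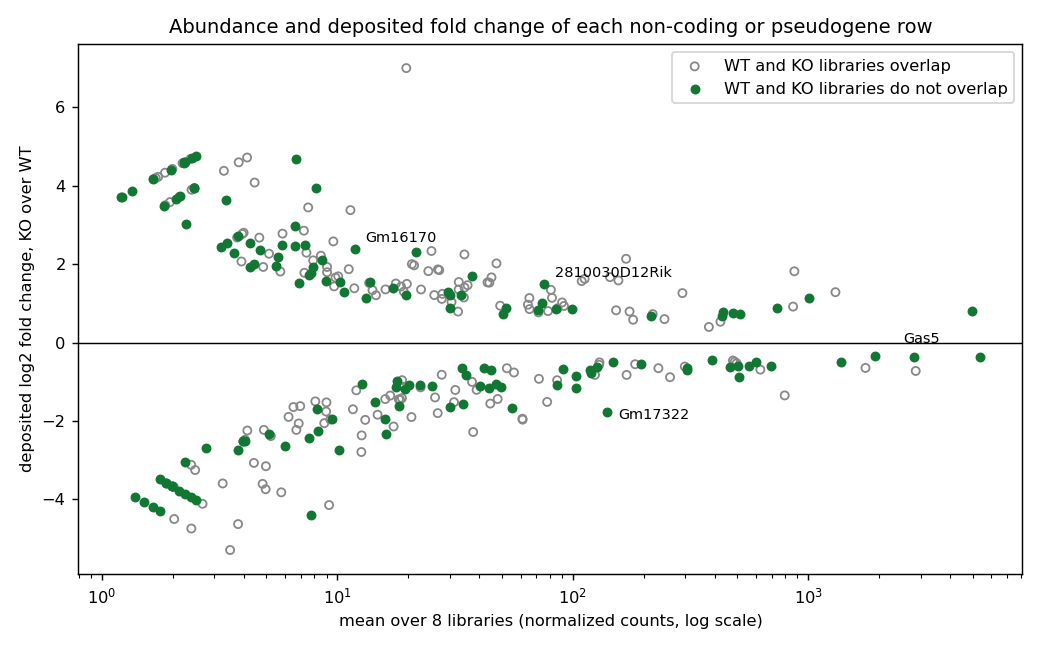
Deposited log2 fold change of KO over WT (y axis) against the mean of 8 libraries in normalized counts (x axis, log scale), one point per non-coding or pseudogene row, filled where the 4 WT and 4 KO libraries do not overlap. Points at means of 100 or more lie between -1.77 and 2.14, and more of them lie below 0 (36) than above it (24).

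The host transcripts of snoRNAs that were listed were lower in KO. Of 104 long non-coding genes matched by symbol to GENCODE M21, 6 hold an annotated snoRNA on the same strand within their bounds (5.77%). All 6 were listed as lower, where 48 of the 104 were. Of all 10155 long non-coding genes in that annotation, 0.699% hold such a snoRNA. Listed genes are transcribed in these tumours, which many annotated genes need not be, and how far this raises the share was not tested. From a list of 23 host names, Snhg15, Snhg6, Gas5 and Mir17hg were listed, each as lower, and the other 19 were not listed. Mir17hg holds 6 miRNAs and 0 snoRNAs in the annotation and is described after the snoRNA hosts. Whether the authors counted reads of an intronic snoRNA towards its host is not stated.

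Gas5 (growth arrest specific 5), which carries 10 snoRNA annotations, had 3520.3, 3234, 3102 and 2796 normalized counts in WT replicates 1 to 4 and 1934, 2628, 2478 and 2753 in KO replicates 1 to 4. All KO libraries were below all WT libraries, but KO replicate 4 was close to WT replicate 4. In the authors' deposited table Gas5 showed a log2 fold change of -0.37 (p = 0.0403, adjusted p = 0.700), and a DESeq2 refit gave a standard error of 0.16.

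1110038B12Rik, the host of Snord52, was the host with the clearest separation. It had 1496, 1675, 1489.6 and 1821 normalized counts in WT and 1235, 1172, 1021 and 1131 in KO. The lowest WT library thus exceeded the highest KO library by more than the spread within the KO group. Its log2 fold change was -0.51 in the authors' deposited table (p = 0.000908, adjusted p = 0.274), and the DESeq2 refit gave -0.51 with a standard error of 0.13 and an adjusted p of 0.0434. This made it 1 of 5 non-coding rows past 0.05 in that refit. The refit saw selected genes alone and is no independent evidence, and the share of all listed genes that passed it is not given here.

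The remaining hosts had fewer reads. Snhg15, the host of Snora9, had 331, 308, 400.5 and 484 normalized counts in WT and 219.8, 269, 194 and 249 in KO, with no overlap. Snhg6, the host of Snord87, had 426, 589, 402 and 393 in WT and 359.6, 347, 349 and 263 in KO, also with no overlap, although WT replicate 2 stood above the other WT libraries and the log2 fold change of Snhg6 was -0.30 in the edgeR refit without it. 2410006H16Rik, which holds Snord49a, Snord49b and Snord65, had 675, 464, 499.6 and 638 in WT and 479, 380.4, 425 and 337 in KO, and its groups overlapped. AA465934, which holds Snord7, had 88.5, 16.4, 1.01 and 144.7 in WT and 11.6, 12.9, 12.5 and 14.7 in KO, so its lower mean came from WT replicates 1 and 4. In the authors' deposited table the log2 fold changes were -0.71 for Snhg15, -0.46 for Snhg6, -0.49 for 2410006H16Rik and -2.28 for AA465934. 2410006H16Rik and AA465934 were chosen after their values were seen.

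Mir17hg is the precursor transcript of the miR-17-92 cluster, whose 6 miRNAs are printed above and are known as growth-promoting in tumours. It had 617, 641, 492 and 503 normalized counts in WT and 349, 457.6, 334 and 329 in KO. The groups did not overlap, and KO replicate 2 was the only KO library near the WT range. The authors' deposited table gives it a log2 fold change of -0.62 (p = 0.00244, adjusted p = 0.369). The miRNAs themselves are not measured by this transcript's reads.

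The mature snoRNA genes showed the same direction at lower counts. Snord83b, which lies in an intron of the ribosomal protein gene Rpl3, had 97.3, 80.1, 113 and 172 normalized counts in WT and 55.9, 60.0, 35.6 and 68.5 in KO, with no overlap. Gm26387, in Rpl5, had 37.0, 47.3, 38.4 and 58.7 in WT and 16.4, 28.9, 23.1 and 33.3 in KO, and Snora41, in the translation factor gene Eef1b2, had 31.1, 23.6, 39.4 and 43.5 in WT and 21.2, 16.1, 16.02 and 10.8 in KO. Neither overlapped. Snora57 had 73.9, 46.2, 62.7 and 73.9 in WT and 40.5, 50.4, 38.3 and 34.2 in KO, where KO replicate 2 exceeded WT replicate 2. Snora62 and Snora68 had means of 4.06 and 4.82, and their WT libraries ran from 0.973 to 13.4 and from 0 to 22.4. Gm24500 was the only snoRNA listed as higher, with 3.89, 6.16, 1.01 and 2.02 in WT and 3.86, 11.8, 10.7 and 18.6 in KO. In the authors' deposited table the log2 fold changes ran from -3.60 to 1.78 over the 7 snoRNAs, and that of Snord83b was -1.07 (p = 0.00211, adjusted p = 0.345). Of the snoRNA genes in this paragraph, the rule for named genes chose Snord83b and Snora57, and the others complete the count.

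Among coding genes that surround these snoRNAs, Rpsa, which surrounds Snora62, was itself listed, with 12519 ± 6307 (SD, n = 4) in WT and 7968 ± 683 (SD, n = 4) in KO. Rpl3, Eef1b2 and Rpl5 were not listed. Scarna2, a small RNA of the Cajal body, had 23.3, 2.05, 18.2 and 41.5 in WT and 5.78, 1.07, 1.78 and 7.83 in KO, and its groups overlapped through WT replicate 2. Proliferation markers moved in the same direction as the hosts: 2 of 5 (Birc5 and Top2a) were listed, both lower, with a summed level of 4888 to 7194 in WT and 3768 to 5505 in KO. Their part in the result was not tested. KO replicate 4 stands apart from the other KO libraries. Without it, all 6 hosts and the same 6 of 7 snoRNAs still had a KO mean below the WT mean. So did all 150 non-coding rows listed as lower, so this does not set the hosts and snoRNAs apart.

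**Figure D3:**
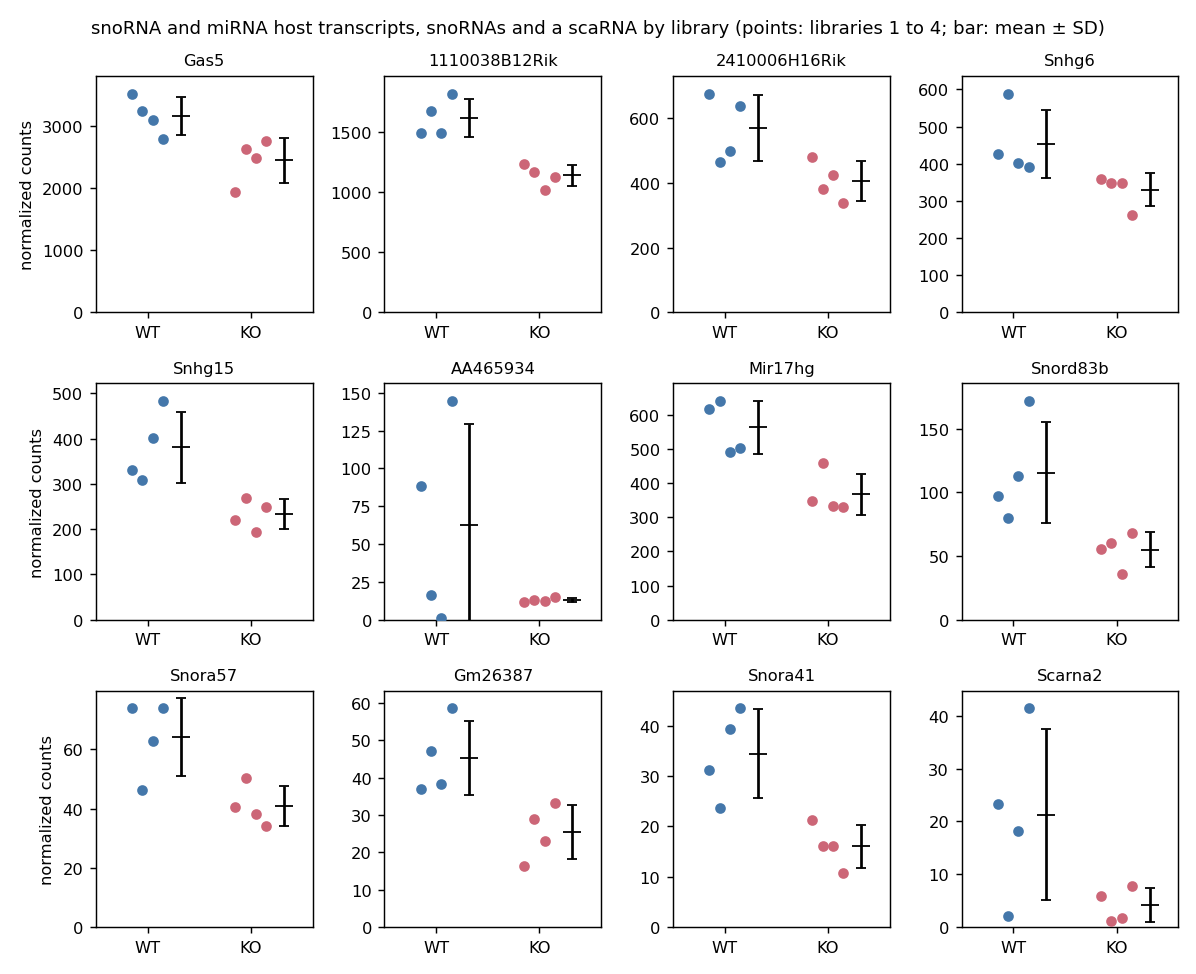
Normalized counts (y axis, each panel on its own scale from 0) of 6 snoRNA hosts, the miRNA host Mir17hg, 4 snoRNAs and Scarna2 in 4 WT and 4 KO libraries (points), with the mean ± SD beside them; bars that reach below 0 are cut there. KO points lie below all WT points in Gas5, 1110038B12Rik, Snhg6, Snhg15, Mir17hg, Snord83b, Gm26387 and Snora41 and overlap WT in the other panels.

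Host genes of snoRNAs often start with a C followed by a run of pyrimidines, as do genes of ribosomal proteins, so the starts were read. RefSeq start windows on GRCm38.p6 were at hand for 62 symbols, and a start with C and then at least 4 pyrimidines was present for 5 of them (8.06%), against 3.01% of the 27025 symbols in the table. The 5 are Gas5, 1110038B12Rik, 2810001G20Rik, D930028M14Rik and Gm16537, and all were listed as lower in KO. D930028M14Rik and Gm16537 had means of only 9.23 and 4.05. The share listed as lower among the 62 symbols was not computed, and 48 of the 104 matched long non-coding genes were lower. A link between such a start and direction was not tested. The windows of the hosts are shown with the 10 bases before the start in lower case and the 20 bases from it in capitals, on the plus strand at chr1:161035156-161035185 for Gas5, chr11:62602867-62602896 for 2410006H16Rik and chr11:83291689-83291718 for AA465934, and on the minus strand at chr17:34952449-34952478 for 1110038B12Rik and chr11:6528741-6528770 for Snhg15. Gas5 and 1110038B12Rik have a second RefSeq start without the run. Read from the annotated start, 2410006H16Rik, Snhg15 and AA465934 do not hold it, so 2 of the 5 hosts with a window have such a start. In 2410006H16Rik a run of pyrimidines that begins with a C crosses the annotated start, and a start a few bases upstream would hold it.
Gas5: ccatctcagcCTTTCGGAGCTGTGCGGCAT
1110038B12Rik: gcacacgggtCTCTTTGTGCACCCGCCCAC
2410006H16Rik: cgccgtctttCTCTGCGGCCATCATGGGAT
Snhg15: ctgtgaccgtAACTTTAAGCACACGTGAGC
AA465934: ggggctgtggGATGCAGGCCCGAAGAGGCG

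The other small RNA genes had means under 100, and a library of this kind mostly captures precursor transcripts rather than mature miRNAs. Mir7-1, in an intron of Hnrnpk, had 22.4, 34.9, 28.3 and 22.3 normalized counts in WT and 3.86, 18.2, 11.6 and 13.7 in KO, with no overlap (log2 fold change -1.19 and adjusted p 0.649 in the authors' deposited table). Mir6955, in Gga1, had 13.6, 20.5, 12.1 and 7.08 in WT and 8.68, 4.29, 2.67 and 2.94 in KO, and the groups overlapped. Over the 5 miRNA genes 3 were lower and 2 higher. No miR-29 gene was among the listed rows, so the disrupted gene gives no check of the labels. Of the 4 spliceosomal snRNA genes 2 were higher and 2 lower. Gm26403 had 0.973, 1.03, 3.03 and 1.01 in WT and 10.6, 9.64, 16.02 and 10.8 in KO, with no overlap, and Gm25047, also higher, had 5.84 to 17.5 in WT and 13.9 to 55.2 in KO. Gm22770 (2.02 to 12.3 in WT, 0.890 to 2.14 in KO) and Gm25048 (0 to 8.09 in WT, 0 to 0.978 in KO) were the lower ones, and in these 3 genes the groups overlapped. Gm22770 and Gm25048 complete the count. Gm27817 is annotated as misc_RNA, with 233 bases that lie within the processed transcript Hoxa11os on the same strand. It had 33.4 to 72.8 in WT, 56.9 to 75.2 in KO replicates 1 to 3 and 247.6 in KO replicate 4.

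The row with the most reads was a processed transcript without a symbol, matched to the zeta subunit of the chaperonin that folds actin and tubulin (MGP_C57BL6NJ_G0016007, chr5:139041501-139052608, plus strand). It had 5581, 6044, 5397 and 7064 normalized counts in WT and 4847, 4917, 4641 and 4243 in KO. Every KO library was below every WT library, and in the authors' deposited table it had -0.37 as its log2 fold change and an adjusted p of 0.636. A pseudogene matched to the transcription factor C/EBP delta (chr16:13140283-13141463, plus strand) had 2313, 1773, 1689.8 and 2772 in WT and 1450.0, 1735, 1321 and 953 in KO, and its groups overlapped because KO replicate 2 exceeded WT replicate 3. An unannotated locus without a protein match (chr9:107889687-107891798, minus strand) had 2020.4, 2097, 2071 and 2429 in WT and 1459, 1991, 1539 and 1775 in KO, with no overlap but with KO replicate 2 close to WT replicate 1.

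Among the other long non-coding RNAs listed as lower, Rab10os, antisense to Rab10, had 572, 518, 513 and 1046 normalized counts in WT and 416, 239, 450.2 and 327 in KO. The groups did not overlap, and WT replicate 4 stood above the other WT libraries. Rab10os has a log2 fold change of -0.89 and an adjusted p of 0.501 in the authors' deposited table, and -0.58 in the edgeR refit without WT replicate 4. Crnde, a transcript known to be high in colorectal tumours, had 39.9, 44.2, 58.7 and 61.7 in WT and 33.7, 11.8, 23.1 and 0 in KO, so that its lower mean, a log2 fold change of -1.57 by the authors' deposited table, rested in part on KO replicate 4. Gm17322 had 134, 155, 193 and 385 in WT and 51.1, 87.9, 107 and 8.81 in KO. It overlaps Cyp11a1, a steroid-synthesis gene, on the same strand, and Cyp11a1 was listed in the same direction (43.9 ± 11.9 in WT, 11.98 ± 8.39 in KO, SD, n = 4). The bounds of the 2 genes overlap by 1041 of the 10826 bases of Gm17322, and reads in that stretch cannot be told apart. The sense-intronic Gm28229 and the bidirectional-promoter transcript AV356131 were also lower, at -0.57 and -0.66 on the log2 scale in the authors' deposited table, and without WT replicate 2 the edgeR refit gave -0.31 for Gm28229.

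Long non-coding RNAs listed as higher had a few well-measured examples with tight WT groups. 2010016I18Rik had 331, 343, 347 and 301 normalized counts in WT and 602, 406, 610.4 and 504 in KO, and every KO library was above every WT library. The authors' deposited table gives 2010016I18Rik a log2 fold change of 0.68 (p = 0.000639, adjusted p = 0.255), with a standard error of 0.18 in the DESeq2 refit. 9530082P21Rik had 354, 289.7, 436 and 356 in WT and 466, 494, 498 and 953 in KO, with no overlap, and KO replicate 4 stood far above the rest. The log2 fold change of 9530082P21Rik was 0.75 in the authors' deposited table and 0.44 in the edgeR refit without KO replicate 4. Fendrr, a transcript needed for heart and body wall development in the mouse embryo, had 176, 104, 192 and 188 in WT and 292, 197, 317 and 250.5 in KO. Of the 33 nuclear and chromatin long non-coding RNAs on a fixed list, Fendrr and Crnde were the only ones listed, in opposite directions.

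Among those with fewer reads, the sense-intronic RNA Gm17193 had 19.5, 17.5, 17.2 and 16.2 in WT and 47.2, 22.5, 48.9 and 110.6 in KO, and 2810030D12Rik had 34.0, 51.4, 54.6 and 18.2 in WT and 84.8, 81.4, 59.6 and 220.2 in KO. Gm16170 had 1.95, 5.14, 6.07 and 2.02 in WT and 26.0, 28.9, 8.01 and 16.6 in KO. Each of these kept its groups apart. The log2 fold changes were 1.71 for Gm17193, 1.50 for 2810030D12Rik and 2.39 for Gm16170 in the authors' deposited table, with adjusted p-values of 0.274, 0.429 and 0.274. For 2810030D12Rik the edgeR refit gave 0.93 when KO replicate 4 was left out. Gm12860 (17.2 to 27.2 in WT, 33.8 to 43.1 in KO) and Gm26532 (104 to 174 in WT, 147 to 344 in KO) were chosen after their values were seen.

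**Figure D4:**
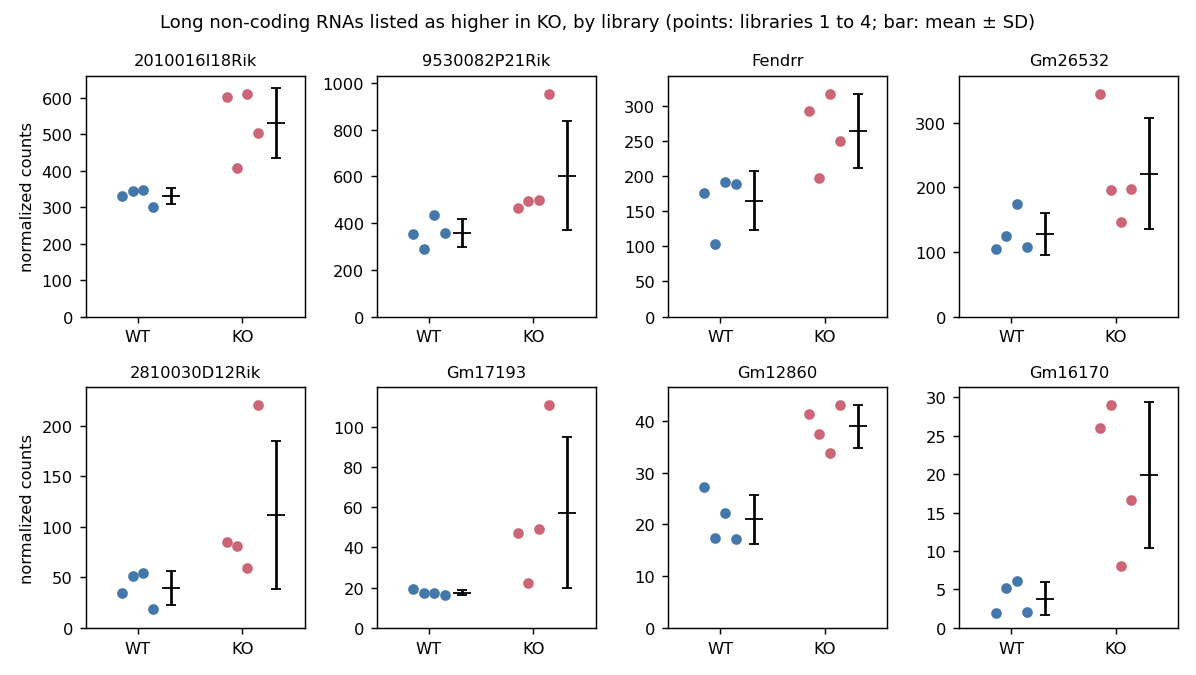
Normalized counts (y axis, each panel on its own scale from 0) of 8 long non-coding RNAs listed as higher in KO, in 4 WT and 4 KO libraries (points), with the mean ± SD beside them. KO replicate 4 is the highest point in 9530082P21Rik (953), 2810030D12Rik (220.2) and Gm17193 (110.6), and Gm26532 is the only one whose groups overlap.

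By the coordinates of the deposited table, 14 pairs of a non-coding row and a listed protein-coding gene overlap, 10 on opposite strands and 4 on the same strand, and 12 of the 14 had the same direction. No share expected of such pairs was computed. The kit marks strand, but whether the counting used it is unknown. The 2 exceptions were Gm15441, which had 12.6, 34.9, 26.3 and 31.4 normalized counts in WT and 13.5, 7.50, 15.1 and 11.7 in KO while Txnip on the other strand went from 5949 ± 1067 to 9652 ± 4482 (SD, n = 4), and 2010320O07Rik, which had a mean of 2.25 and lies opposite Pcdh1. Txnip is a thioredoxin-binding regulator of glucose uptake.

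Because the disrupted miRNA represses matching transcripts, the long non-coding genes were searched for TGGTGCT, the match to bases 2 to 8 of miR-29, on the sense strand of the longest GENCODE M21 transcript. The 7 letters occurred in 12 of 56 higher genes (21.4%, median transcript length 1229 bases) and in 8 of 48 lower genes (16.7%, median 1254.5 bases). The share over all 10155 long non-coding genes was 11.96%, at a median length of 978 bases. A match is a description of letters, not a site shown to be bound. It was present in 6 of the transcripts described above, printed here on the transcript strand with the match in capitals, and these went in both directions: Fendrr and 9530082P21Rik were higher, and Mir17hg, Gm17322, Rab10os and Gm28229 were lower. 9530082P21Rik holds 2 matches, of which the first is shown.
Fendrr: tgtgggaaTGGTGCTtgaagatg
9530082P21Rik: tctctaccTGGTGCTgagattac
Mir17hg: gggcctgcTGGTGCTgcgtgctt
Gm17322: acaaggggTGGTGCTtcataaag
Rab10os: ttgtgtgaTGGTGCTgcacatgt
Gm28229: aacctttcTGGTGCTaacaggaa

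The pseudogene with the smallest adjusted p of all 315 genes was an unprocessed one on chromosome 6 (MGP_C57BL6NJ_G0041028, chr6:40242364-40318850, plus strand, in the table's C57BL/6NJ coordinates), whose deposited protein match is maltase-glucoamylase 2, a starch-digesting enzyme family of the gut surface. It had 544, 714, 832 and 430.0 normalized counts in WT and 1159, 1241, 1333 and 1814 in KO, with every KO library above every WT library. Its log2 fold change was 1.14 and its adjusted p 0.0536 in the authors' deposited table, and the DESeq2 refit gave a standard error of 0.27 and an adjusted p of 0.0308. Without KO replicate 4 its KO mean was still 1.97 times the WT mean. The colonocyte markers Cdhr5 and Mep1a, 2 of 7 listed, were also higher, with a summed level of 5675 to 7488 in WT and 8167 to 23257 in KO, and their part in the result was not tested. The other unprocessed pseudogenes were all higher too, but in each the groups overlapped and KO replicate 4 was the highest library.

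Processed pseudogenes leaned lower (21 of 34), and their reads may include those of the parent gene. The best measured, matched to lactoylglutathione lyase (MGP_C57BL6NJ_G0011857, chr2:34951308-34951862, plus strand), had 596, 800.3, 472 and 1224 normalized counts in WT and 496, 544, 533 and 343 in KO, and its groups overlapped. Of 10 processed pseudogenes matched to ribosomal proteins of the cytosol, 5 were higher and 5 lower. The 3 loci matched to heat shock proteins were all lower. The largest, an unannotated locus matched to HSP 90-alpha (chr12:116454580-116456460, minus strand), had 2295, 3726, 2363 and 5880.0 in WT and 1705, 2238, 2549 and 2141 in KO, with WT replicates 2 and 4 high. Another of the 3, a pseudogene, overlaps the listed coding gene Hspb1 on the same strand over all its 1799 bases. Hspb1 was also lower (68.5 ± 13.0 in WT, 23.2 ± 9.73 in KO, SD, n = 4), and their reads cannot be told apart. H2-Bl, a class I histocompatibility gene annotated as a polymorphic pseudogene, had 2.92, 0, 3.03 and 2.02 in WT and 0, 3.21, 14.2 and 65.6 in KO, so its difference was mainly that of KO replicate 4.

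Of the 107 unannotated loci, 38 have a protein match in the deposited table and 69 have none. Among those with a match 29 were higher and 9 lower (76.3% higher), and among those without 28 were higher and 41 lower (40.6% higher). Per kilobase the most abundant was a locus matched to keratin 8, an epithelial filament protein (chr7:22218397-22219345, plus strand), at a mean of 5344 normalized counts per kilobase. It had 3035, 3789, 4360 and 3303 normalized counts in WT and 6189, 5207, 5065 and 8684 in KO, with no overlap, and its log2 fold change was 0.80 (adjusted p = 0.279) in the authors' deposited table. The lower locus with the smallest adjusted p (chr9:99312591-99313525, minus strand, no match) had 10.7, 24.7, 20.2 and 15.2 in WT and 2.89, 1.07, 4.45 and 1.96 in KO, with -2.74 as its log2 fold change and an adjusted p of 0.0982 in the authors' deposited table.

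Some matches recurred, and the groups formed from them were chosen after their values were seen. Of 6 loci matched to proteins of retroelements, genomic parasites that copy themselves through RNA, 5 were higher. A locus matched to a retroviral Gag protein (chr2:174905036-174908004, plus strand) had 380.3, 267, 439 and 450.2 in WT and 699.9, 585, 609 and 662 in KO. A locus matched to the LINE-1 ORF2 protein (chr1:161354302-161364864, minus strand) had 42.8, 42.1, 46.5 and 64.7 in WT and 87.7, 102, 95.2 and 112 in KO. Neither overlapped, and their KO means without replicate 4 were 1.64 and 1.94 times the WT means. The third, matched to a retroviral Pol protein, was the lower one, with 33.4 to 71.9 in WT and 0 to 21.4 in KO. Reads of such repeats can be shared among copies, and how the authors assigned them is unknown.

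The 3 loci matched to NAIP proteins, sensors of bacterial proteins in the inflammasome, were all higher. The largest had 440.6, 765, 564 and 309 in WT and 918, 879, 766 and 1277 in KO, so KO replicate 3 was only just above WT replicate 2. The 4 loci matched to GVIN1, an interferon-induced very large GTPase, were all higher as well, and KO replicate 4 was the highest KO library in each. They form 2 pairs on chromosome 7 whose bounds overlap, so reads may be shared within a pair and the 4 are not separate observations. The largest (chr7:113448610-113630685, minus strand) had 607, 884, 1007 and 541 in WT and 1179, 1073, 944 and 4206 in KO. It was 2.44 times higher in the KO mean with all libraries and 1.40 times without KO replicate 4. Of 10 B cell markers all 10 were listed as higher, with a summed level of 51.4 to 199 in WT and 148, 705, 222 and 2318 in KO replicates 1 to 4. Their part in the values of these loci was not tested. In bulk tumours, more cells of a type and more RNA per cell cannot be told apart.

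**Figure D5:**
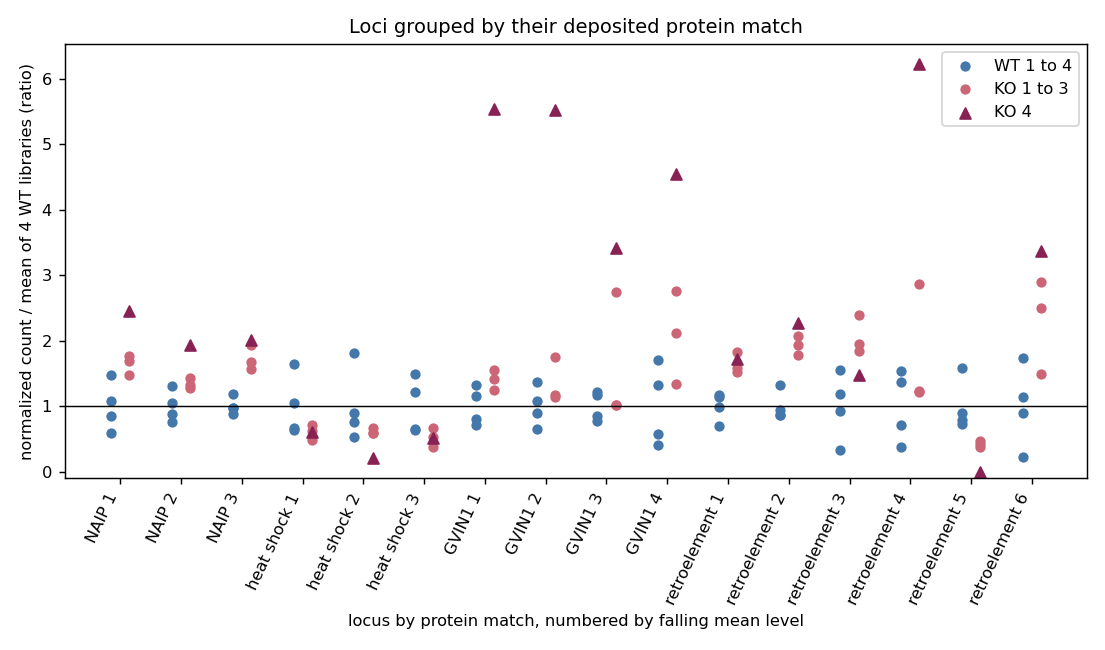
Normalized count divided by the mean of the 4 WT libraries (y axis, ratio) for each locus matched to NAIP, heat shock, GVIN1 or retroelement proteins (x axis), with WT libraries as blue points, KO replicates 1 to 3 as red points and KO replicate 4 as triangles. KO replicate 4 is far above the other KO libraries in the largest 2 GVIN1 loci, whereas in the first 2 retroelement loci the 4 KO libraries lie together.

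KO replicate 4 stood apart throughout. It topped the KO group in 112 of the 165 higher genes (67.9%) and was at its bottom in 62 of the 150 lower ones (41.3%), and in 77.2% and 65.8% of the protein-coding rows. Of the normalized counts of the listed genes, the non-coding and pseudogene rows took 3.29% to 4.19% in WT and 2.72% to 3.01% in KO. These shares did not overlap, but the summed counts of the non-coding and pseudogene rows did, at 42169.5 to 51025 in WT and 40289 to 58145.5 in KO. The sum over all listed genes, by which the share is divided, was 1182670 to 1294128 in WT and 1364689 to 2133832 in KO. The groups were thus separate in the share but not in the summed level of all these rows. The top of the KO range was KO replicate 4, whose unannotated loci summed to 33268. KO replicates 1 to 3 had sums of 40289 to 42411. By class, the summed long non-coding RNAs were lower in KO without overlap, at 17288.5 to 20318 in WT and 14763 to 16513 in KO. The sums of the other classes overlapped. The reads of all listed genes summed to 1202677 to 2180787 per library, the highest in KO replicate 4, and the total depth of each library is not known. Of the other marker lists, T cell (3 of 10), enteroendocrine (3 of 6), tuft (3 of 6), fibroblast (2 of 6), smooth muscle (1 of 5) and endothelial (1 of 5) markers were listed as higher, mast cell (2 of 6), neutrophil (1 of 6) and stem cell (1 of 5) markers as lower, and no plasma cell, macrophage, goblet cell or glial marker was listed.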

How the data were processed

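RNA of 8 mouse colon tumour libraries was extracted with TRIzol and prepared with the NEBNext Ultra Directional kit, according to the protocols per the labels. HISAT2 and DESeq2, without versions, and the build GRCh38 appear in the submitters' processing notes. That is a human build, whereas the identifiers are those of the mouse C57BL/6NJ annotation. Coordinates from the deposited table are therefore given as they stand, and those from GENCODE M21 and RefSeq (GRCm38) are given separately and were matched by symbol alone (123 of 125 symbols matched 1 GENCODE gene). The authors deposited, per the file headers, a normalized signal per library (counts divided by size factors), group means, log2 fold changes, p-values and adjusted p-values for 1428 genes. Multiplying by a size factor gave whole reads within 0.001 for 100% of values. Ratios and means ± SD over 4 libraries were computed from the deposited signal. The authors' adjusted p-values, over 19985 genes, are the main test.

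Recovered reads were refitted as alternatives with edgeR 4.0.16 by quasi-likelihood, with DESeq2 1.42.0 and with limma 3.58.1 (pseudocounts 1 and 0.1 on the log2 scale) in R 4.3.3, with Benjamini-Hochberg adjustment over 19985 genes. These refits see selected genes alone and are no independent evidence. The edgeR script was first tested on simulated data. No 2 libraries within a group agreed within counting noise (smallest chi-square 19.8 per degree of freedom), and all 8 were kept. Loci are matched to proteins as the deposited table states.

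Named genes are the rows with an adjusted p below 0.1, per direction the 10 with the highest mean and the 6 with the largest log2 fold change among those with a mean of at least 10 and separate groups, per biotype the 2 with the highest mean (1 for biotypes with under 3 rows), and up to 4 listed genes of each fixed list. Named outside this rule, after their values were seen, are the overlapping pairs, protein-match groups, 5430427M07Rik and genes that complete a count. Of the fixed lists, microRNA hosts held Mir17hg and structural small RNAs Scarna2, and none of the miR-29, mitochondrial RNA or immune cell lists was listed. Rows without a symbol are described by match and position. Genes and lists were chosen with earlier results of these data known.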

Additional observations from a re-analysis of the deposited data

Results flagged for a closer look

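In each named gene the library farthest from the other 3 of its group was compared with Dixon's critical value for 4 values. Of 118 groups of 4 libraries tested, 18 had a library beyond it, and chance flags about 1 in 20. KO replicate 4 was that library in 12 of the 18.

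KO replicate 4 was high in the largest GVIN1-matched locus (4206 normalized counts), an unannotated locus without a match (2337), 9530082P21Rik (953), a GVIN1-matched unprocessed pseudogene (950.1), an unsymbolled long intergenic RNA on chromosome 13 (743), a TEC locus (427), Gm27817 (247.6), 2810030D12Rik (220.2), a transcribed processed pseudogene matched to NSA2 (93.0) and an unannotated locus on chromosome 6 (88.1). KO replicate 4 was low in Snhg6 (263) and in an unannotated locus on chromosome 10 (434). KO replicate 2 was high in Mir17hg (457.6), and KO replicate 3 was low in an unsymbolled antisense RNA (108.6). In WT, replicate 4 was high in Rab10os (1046), replicate 2 in Snhg6 (589) and in another locus on chromosome 10 (53.4), and replicate 3 in the snRNA gene Gm26403 (3.03). None of these values was left out of the report.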

How the results depend on the processing

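No gene of the 315 changed direction in any of the 14 refits. The number listed as higher that kept an unadjusted p below 0.05 went from 165 to 123 with edgeR, 91 with TMM factors over the listed genes and 90 with a mean of at least 10; the number listed as lower went from 150 to 116, 140 and 94, and to 95 with limma at a pseudocount of 0.1. The TMM factors moved the median log2 fold change of all listed genes by -0.16. Leaving out 1 library at a time gave 74 to 123 higher and 71 to 113 lower with edgeR, and 73 to 91 higher and 74 to 99 lower genes with separate groups; the latter were 28 and 46 at a mean of at least 10. Fewest higher genes, 74, were kept without KO replicate 4, and fewest lower genes, 71, without KO replicate 1; without WT replicates 1, 2, 3 and 4 they were 77, 89, 100 and 79 higher. The cause of these changes in count was not tested, and neither was the part that a smaller number of samples or genes has in them. The DESeq2 refit placed 5 genes past an adjusted p of 0.05, where the deposited table, edgeR and limma placed 0. The share of all listed genes past it in the DESeq2 refit is not given here. The labels do not say that equal replicate numbers mark pairs, and the deviations of such pairs correlated at 0.054, -0.020, -0.19 and -0.24, so the replicate block, which left 71 higher and 69 lower genes, is given here only. Depth limits the 131 genes with means under 10.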

Other observations

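Of 12 unannotated loci on unplaced scaffolds of the C57BL/6NJ assembly, 9 were higher and 3 lower in KO. They included a locus matched to gasdermin C3, a pore-forming protein, with 350.2, 584, 470.2 and 140.6 normalized counts in WT and 476, 943, 202 and 3822 in KO. KO replicates 1 and 3 were thus within the WT range and KO replicate 4 was far above it. A locus matched to TGTP1, a T cell-specific GTPase induced by interferon, had 0.973, 0, 1.01 and 2.02 in WT and 7.71, 3.21, 6.23 and 44.0 in KO.

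The largest deposited log2 fold change of the 315 genes, 6.99 in the authors' deposited table, belonged to the antisense RNA 5430427M07Rik. It had 0, 0, 1.01 and 0 normalized counts in WT and 0, 17.1, 0 and 139 in KO, so 2 of the 4 KO libraries gave no read.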
